A study of Mus musculus with 8 samples.

Results

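The mitochondrial genome of the mouse was followed as 37 genes, made up of 13 protein-coding, 2 rRNA and 22 tRNA genes. They were all rows of the count table whose Ensembl identifier carries a GENCODE M21 symbol that begins with mt-, and they were 37 of the 38293 genes in the table. Each gene lies on chromosome M of GRCm38. Poly(A) RNA of the left ventricle was sequenced from 8 male C57BL/6 mice of 8 weeks of age that had received no treatment. The 4 hearts labelled WT (replicates 1 to 4) were wild type, and the 4 hearts labelled mORF4-NBDY_KO (replicates 5 to 8, KO below) came from mice labelled as knockouts of Nbdy, which encodes a microprotein of the mRNA decapping complex. How the allele was made, whether the animals were littermates and when the libraries were made is not in the labels. Library totals ran from 11101901 to 14699949 counts. The label of every heart was checked with Nbdy, which held 208 to 248 counts in WT and 115 to 137 in KO (log2 fold change -0.97 ± 0.11; edgeR adjusted p = 0.0060). Nbdy fell but was still counted in every KO heart, and which part of the gene those counts come from is not in the table. Without KO replicate 6 its adjusted p in edgeR was 0.056.

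The mitochondrial genome is a small circle that is transcribed from both strands into long precursors. The heavy-strand precursor carries both rRNAs, most tRNAs and all mRNAs except mt-Nd6, which lies on the other strand. The tRNAs sit between the other genes and are excised, which frees the rRNAs and mRNAs, and most of these then receive a short poly(A) tail. The mRNAs encode core subunits of respiratory complexes I, III and IV and of ATP synthase. The heart is among the tissues with the most mitochondria, and cardiomyocytes hold most of them. Copies of parts of the mitochondrial genome also lie in the nuclear chromosomes, and a read that matches both places cannot be assigned to either.

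In short, 6 heavy-strand mRNAs supplied most mitochondrial counts, mRNAs whose whole length has a near-perfect nuclear copy were almost uncounted, and no mitochondrial gene passed the test between genotypes. The 6 mRNAs (mt-Nd1, mt-Nd2, mt-Co1, mt-Nd4, mt-Nd5 and mt-Cytb) took 91.8 ± 3.42% of mitochondrial counts in the 4 WT hearts and 94.3 ± 0.755% in the 4 KO hearts (mean ± SD). In WT, mt-Nd4 stood at 23642 ± 8204 CPM (counts relative to library size, TMM-scaled) and in KO at 31234 ± 1601 (SD over 4 hearts). The p of this gene was the smallest among those tested, with an adjusted p of 0.777 by edgeR (quasi-likelihood, all genes). Both rRNAs had negative and all 8 tested mRNAs positive log2 fold changes, none of which passed. The values of mt-Co2, at 1 to 29 counts, and of mt-Nd6 turned negative when 1 heart was left out.

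The sequences of the genes that went uncounted show how close their nuclear copies are. The first 120 bases of mt-Nd3, a subunit of complex I, are printed beside Gm28438, an unprocessed pseudogene on chromosome 1 (minus strand, 24612775 to 24613119 in GRCm38). All sequences are transcript sequences of GENCODE M21, 5′ to 3′, and capitals mark the bases that differ.
mt-Nd3: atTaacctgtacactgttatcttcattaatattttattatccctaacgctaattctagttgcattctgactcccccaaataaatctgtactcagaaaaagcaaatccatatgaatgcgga
Gm28438: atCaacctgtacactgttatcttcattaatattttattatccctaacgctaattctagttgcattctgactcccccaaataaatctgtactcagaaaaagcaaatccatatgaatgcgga

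Over the 345 aligned bases, mt-Nd3 and Gm28438 differed at 1 base, T3C, counted from the first base of mt-Nd3. In the same stretch of chromosome 1, Gm29216 differed from mt-Co1 at 6 of 492 aligned bases. Other neighbouring pseudogenes there differed from their mitochondrial counterparts at 0 bases. These are Gm28661 for mt-Co2 (681 bases aligned), Gm10925 for mt-Atp6 (678 bases), Gm28437 for mt-Co3 (783 bases), Gm10222 for mt-Nd4l (294 bases) and Gm28439 for the first 876 bases of the 1378 of mt-Nd4. A second copy of mt-Co2, Gm13341 on chromosome 2 (minus strand, 22587291 to 22587962), differed at 16 of 672 bases. The first 60 bases of mt-Co2 and of both copies are shown with the positions that differ, C25T and G57A, in capitals.
mt-Co2: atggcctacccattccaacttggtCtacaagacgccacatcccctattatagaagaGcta
Gm28661: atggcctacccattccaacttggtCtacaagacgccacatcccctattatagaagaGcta
Gm13341: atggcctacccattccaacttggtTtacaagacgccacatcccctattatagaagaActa

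The counts followed this pattern of copies. Each mitochondrial rRNA and protein-coding gene was compared with all annotated nuclear transcripts in windows of 100 bases, since the read length is not stated. Matches were taken on either strand and without mismatch. The tRNA genes are shorter than such a window. The share of windows also found in a nuclear transcript was 99.5% for mt-Co2 (cytochrome c oxidase subunit 2), 99.5% for mt-Atp6 (ATP synthase subunit 6), 99.9% for mt-Co3 (cytochrome c oxidase subunit 3), 97.6% for mt-Nd3 and 98.5% for mt-Nd4l, both of complex I. It was 60.8% for mt-Nd4, 30.8% for mt-Co1 and 3.19% for mt-Nd2, and 0% for mt-Nd1, mt-Nd5, mt-Nd6, mt-Cytb, mt-Rnr1 and mt-Rnr2. The 5 genes with over 90% of their windows shared held at most 366 counts in any library. The rRNA and protein-coding genes with fewer shared windows held from 1109 to 1075430 counts, except mt-Atp8. No window of mt-Atp8 was found in an annotated nuclear transcript, and it held at most 2 counts. The gene mt-Atp8 lies between mt-Co2 and mt-Atp6 and shares 43 bases with mt-Atp6, which is shorter than any window used. The stretch of chromosome 1 between the copies Gm28661 of mt-Co2 and Gm10925 of mt-Atp6 is covered by no annotated transcript. It was not analysed here. With windows of 50 or 150 bases the same 5 genes had over 90% of their windows shared.

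**Figure D1:**
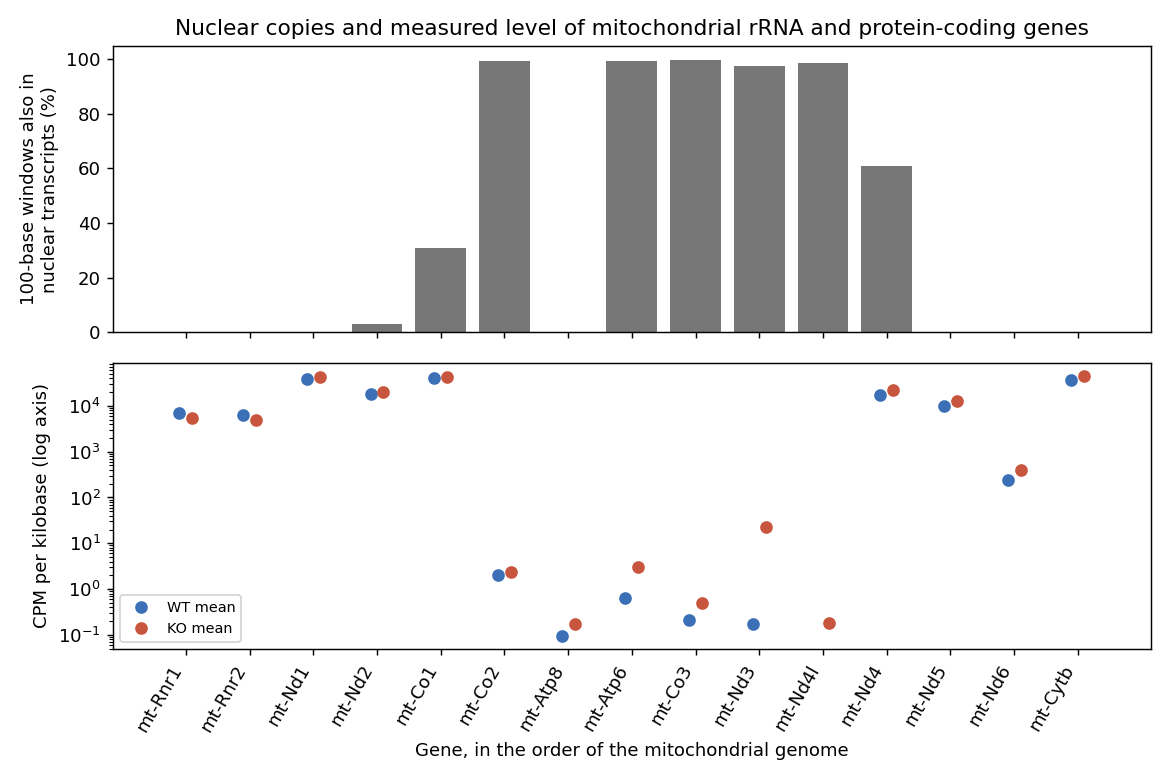
Upper panel, share of 100-base windows of each mitochondrial rRNA and protein-coding gene (in genome order) that also occur without mismatch in an annotated nuclear transcript; lower panel, mean CPM per kilobase on a log axis in WT (blue, n = 4) and KO (red, n = 4). The 5 genes with a share over 90% and mt-Atp8 sit lowest, while mt-Nd1, mt-Co1 and mt-Cytb sit highest; the WT mean of mt-Nd4l is 0 and is not drawn.

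The nearly uncounted mRNAs were at the floor in both genotypes, with isolated exceptions. WT replicates 1 to 4 held 17, 27, 21 and 1 counts of mt-Co2, and KO replicates 5 to 8 held 27, 29, 4 and 25. Its groups overlapped, and WT replicate 4 and KO replicate 7 stood apart as low. For mt-Atp6 the WT hearts held 1, 9, 1 and 10 counts and the KO hearts 105, 1, 4 and 5, so that KO replicate 5 alone was high. For mt-Nd3 the WT hearts held 1, 0, 2 and 0 counts and the KO hearts 3, 1, 0 and 366, so that KO replicate 8 alone was high. Counts of mt-Co3 reached at most 11, in KO replicate 5, and mt-Nd4l and mt-Atp8 at most 2. For mt-Atp6, mt-Atp8, mt-Co2, mt-Co3, mt-Nd3 and mt-Nd4l the table therefore carries no usable level, and neither mRNA of ATP synthase could be compared.

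Counts were also read for the nuclear copies themselves. Gm13341, the diverged copy of mt-Co2, held 347, 621, 639 and 489 counts in WT and 695, 487, 474 and 429 in KO, far more than mt-Co2 itself. Gm13340, a copy of mt-Co1 next to it (37 of 1545 bases differ), held 293, 166, 174 and 364 counts in WT and 625, 473, 261 and 435 in KO. Its log2 fold change was 0.74 ± 0.25 (SE, unadjusted p = 0.010, adjusted p = 0.711 in edgeR), and the groups overlapped. Gm4076, which matches part of mt-Nd5, held 3 to 23 counts. Of the other copies, Gm10222, Gm11407, Gm11512, Gm13339 and Gm20594 averaged under 10 counts per library. The copies Gm10925, Gm28437, Gm28438, Gm28439, Gm28661, Gm29216 and AC124578.3 were not among the genes of the count table. Whether reads of mitochondrial origin contribute to the counts of a copy was not tested.

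The coding sequences of the 6 well-counted mRNAs and of mt-Nd6 end in different ways, shown here because the libraries were made from poly(A) RNA. Where each transcript ends, and whether it carries a tail, cannot be read from the counts. In mitochondria the poly(A) tail completes the stop codon of mRNAs that end in a single T. The last 30 bases of the coding sequences are given with the stop codon, or the part of it that the genome encodes, in capitals.
mt-Nd1: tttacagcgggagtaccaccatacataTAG
mt-Nd2: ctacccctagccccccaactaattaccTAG
mt-Co1: gaggaaccaacctatgtaaaagtaaaaTAA
mt-Nd4: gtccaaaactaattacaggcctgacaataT
mt-Nd5: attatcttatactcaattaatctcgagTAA
mt-Nd6: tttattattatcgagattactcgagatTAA
mt-Cytb: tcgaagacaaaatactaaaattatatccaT
The genes mt-Nd4 and mt-Cytb end in 1 base of a stop codon, as does mt-Co3, and the other 10 protein-coding genes carry a whole one. Among the well-counted genes both kinds of ending reached high levels.

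Per kilobase, the levels in WT ran from mt-Co1 at 40026 ± 10603 CPM per kilobase (SD, n = 4) down through mt-Nd1 at 39135 ± 7036, mt-Cytb at 36546 ± 7795, mt-Nd2 at 18234 ± 6498, mt-Nd4 at 17157 ± 5954 and mt-Nd5 at 9793 ± 5235. In KO the same 6 mRNAs stood at 43316 ± 4495 CPM per kilobase for mt-Co1, 41932 ± 3576 for mt-Nd1, 45149 ± 3666 for mt-Cytb, 20023 ± 2442 for mt-Nd2, 22666 ± 1162 for mt-Nd4 and 12930 ± 2072 for mt-Nd5. The level per kilobase of mt-Cytb was above that of mt-Nd2 in 8 of 8 libraries, and that of mt-Nd4 above that of mt-Nd5 in 8 of 8. The order among mt-Co1, mt-Nd1 and mt-Cytb changed from heart to heart. The level per kilobase of mt-Co1 exceeded that of mt-Nd1 in 1 of 4 WT and 4 of 4 KO hearts, so that the first place of mt-Co1 in the WT means rests on WT replicate 1. That of mt-Nd1 exceeded that of mt-Cytb in 3 of 4 WT and 1 of 4 KO hearts, and neither difference in order was tested. The rRNA genes mt-Rnr1 and mt-Rnr2 lay lower, at 6924 ± 2262 and 6161 ± 2186 CPM per kilobase in WT, in libraries made from poly(A) RNA.

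The place of mt-Nd4 in this order depended on the length used. Divided by its 502 windows of 100 bases that no annotated nuclear transcript holds, rather than by its 1378 bases, the WT level of mt-Nd4 was 47095 CPM per 1000 windows, above mt-Nd1 at 43651 and mt-Cytb at 40009. On that scale mt-Co1 stood at 61840 CPM per 1000 windows.

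**Figure D2:**
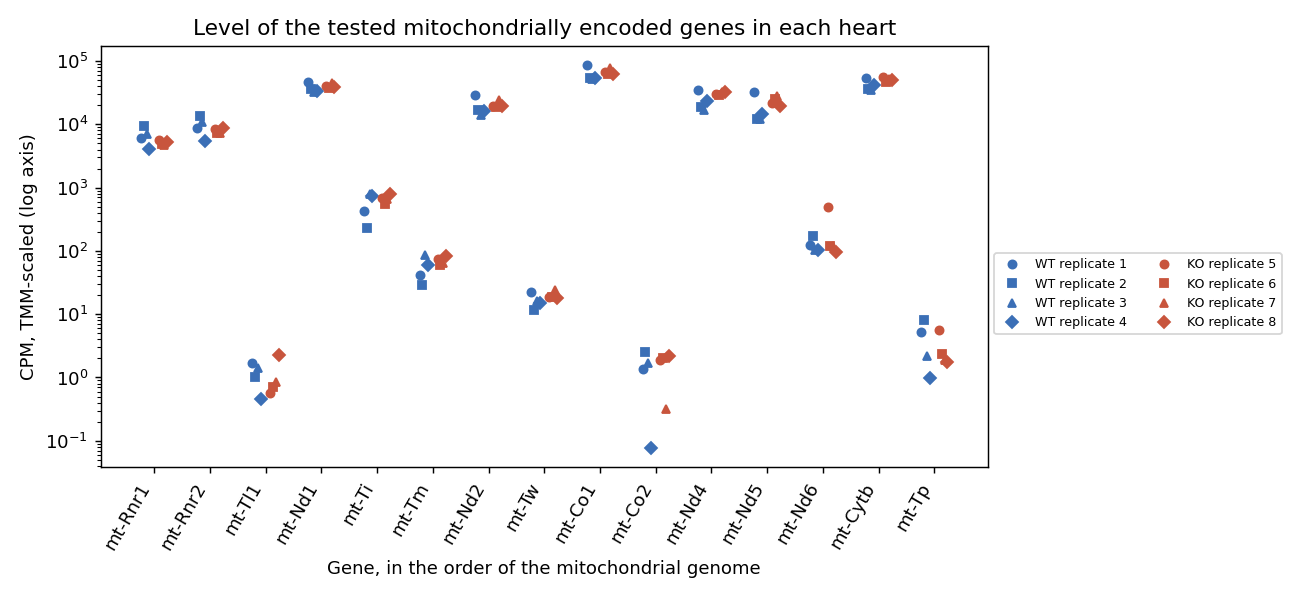
CPM (TMM-scaled, log axis) of the 15 mitochondrial genes with enough counts to be tested, in genome order, with 1 symbol per heart (blue WT, red KO). The 6 leading mRNAs lie between 12242 and 86349 CPM, the groups overlap for every gene, and KO replicate 5 lies apart at 499 CPM of mt-Nd6.

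Of the 37 genes, 15 had enough counts to be tested for KO against WT, which were 2 rRNA, 8 protein-coding and 5 tRNA genes. None passed an adjusted p of 0.05 in edgeR, where 0.0225% of the 13336 genes tested passed (3 genes). At an unadjusted p under 0.05 there were 0 of the 15, against 6.4% of all genes tested (3.5% with a higher level in KO). By DESeq2 0 of the 15 passed and 2 had an unadjusted p under 0.05, where 11 of all genes passed and 6.16% had one. By limma-voom 0 passed and 1 had one, where 3 of all genes passed and 6.42% had one. The log2 fold change was positive for 11 of the 15, against 49.4% of all genes tested, and their median was 0.21, against -0.0032 over all genes. That median is the value of mt-Co2, which held only 1 to 29 counts. Among the 11, mt-Co2 turned to -0.20 without WT replicate 4 and mt-Nd6 to -0.15 without KO replicate 5. The negative genes mt-Tl1 and mt-Tp also changed sign with 1 heart left out. With the tRNA genes left out the median was 0.17. Leaving out 1 heart at a time moved the median of the mitochondrial genes tested to 0.078 at the lowest (WT replicate 2, 15 genes tested). At the highest it was 0.32 (WT replicate 1, 17 genes tested), so the set of genes changed as well. These genes are processed from shared precursors, so that their values are not independent of each other. In RNA from whole tissue, fewer cells of a type and less RNA per cell cannot be told apart.

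The rRNAs of the mitochondrial ribosome had negative log2 fold changes, and neither passed the test. The small-subunit rRNA mt-Rnr1 had 6051, 9340, 6924 and 4133 CPM in WT and 5567, 4830, 4672 and 5286 in KO. WT replicate 2 was the highest of all libraries and WT replicate 4 the lowest, with the KO hearts between them. The log2 fold change of mt-Rnr1 was -0.38 ± 0.20 (SE, adjusted p = 0.783 in edgeR), and -0.16 without WT replicate 2. The large-subunit rRNA mt-Rnr2 had 8828, 13681, 10980 and 5499 CPM in WT and 8394, 7288, 7182 and 8814 in KO. Here too the WT hearts spread across the whole KO range, with a log2 fold change of -0.30 ± 0.22 (SE, adjusted p = 0.818 in edgeR), and -0.091 without WT replicate 2. All 4 KO hearts lay below the WT mean for both rRNAs. The coefficient of variation was 32.7% and 35.5% for mt-Rnr1 and mt-Rnr2 in WT, and 8.09% and 10.2% in KO.

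None of the complex I mRNAs of the heavy-strand precursor passed the test, and all 4 that were tested had positive log2 fold changes. Complex I takes electrons from NADH, and these genes encode its proton-pumping membrane arm. The levels of mt-Nd1 were 47377, 35731, 32670 and 34032 CPM in WT and 39872, 37358, 45020 and 38264 in KO (log2 fold change 0.10 ± 0.16, SE; edgeR adjusted p = 0.926). Those of mt-Nd2 were 28922, 16650, 14168 and 15969 CPM in WT and 19812, 19104, 24558 and 19660 in KO (log2 fold change 0.13 ± 0.21; edgeR adjusted p = 0.926). In both genes WT replicate 1 was the highest of all 8 hearts, and the other 3 WT hearts lay below every KO heart.

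The same arrangement held for the other 2 large complex I mRNAs. The levels of mt-Nd4 were 35219, 19073, 16786 and 23489 CPM in WT and 30223, 29557, 32924 and 32234 in KO. Those of mt-Nd5 were 32075, 12331, 12242 and 14804 CPM in WT and 21494, 25050, 28145 and 19644 in KO. WT replicate 1 again exceeded all KO hearts, which exceeded the other 3 WT hearts. The log2 fold change was 0.40 ± 0.21 for mt-Nd4 and 0.40 ± 0.28 for mt-Nd5 (SE, adjusted p of 0.777 and 0.812 in edgeR), and without WT replicate 1 it was 0.66 and 0.85 (adjusted p of 0.195 and 0.145). An approximate 95% interval of the log2 fold change with all libraries ran from -0.0013 to 0.80 for mt-Nd4.

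The light-strand mRNA mt-Nd6, also of complex I, behaved apart from the others. Its levels were 124, 169, 103 and 104 CPM in WT and 499, 119, 121 and 97.0 in KO. The groups overlapped, and KO replicate 5 alone stood high, with 7126 counts against 1109 to 1837 in the other 7 hearts. The log2 fold change of 0.74 ± 0.44 (SE, adjusted p = 0.792 in edgeR) turned to -0.15 without that library. In KO replicate 5 the minus-strand tRNA gene mt-Tq was also high, with 56 counts against 2 to 15 in the others, and mt-Te held 38 counts, against 30 in KO replicate 6 and 0 to 9 elsewhere. Both were chosen after their values were seen. The minus-strand tRNA gene with the most counts, mt-Tp, held 79 in KO replicate 5 but 88 in WT replicate 2 and 64 in WT replicate 1. All 9 minus-strand genes together took 0.205% of mitochondrial counts in KO replicate 5 and 0.0420% to 0.0901% in the other hearts. Most of that sum was mt-Nd6 in every heart, so it largely repeats the values of mt-Nd6. The genes mt-Nd6 and mt-Nd5 share 14 bases on opposite strands. Whether the counting used strand is not stated, so a part of mt-Nd6 counts from the opposite strand cannot be told apart.

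Cytochrome b, the mitochondrial subunit of complex III, showed the pattern of the heavy-strand mRNAs. The levels of mt-Cytb were 54348, 36530, 34495 and 41864 CPM in WT and 56865, 47172, 52904 and 49662 in KO. KO replicate 5 was the highest and 3 WT hearts lay below every KO heart, with WT replicate 1 among the KO hearts. The log2 fold change was 0.30 ± 0.17 (SE; edgeR adjusted p = 0.784), and 0.46 without WT replicate 1.

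Cytochrome c oxidase (complex IV) could be followed through mt-Co1, its catalytic subunit. The levels of mt-Co1 were 86349, 54731, 52038 and 54241 CPM in WT and 66599, 61325, 76802 and 62967 in KO. WT replicate 1 was the highest heart, and the other 3 WT hearts lay within 52038 to 54731 CPM, below all KO hearts. The log2 fold change was 0.11 ± 0.18 (SE; edgeR adjusted p = 0.929), and 0.32 without WT replicate 1. The 1 other complex IV gene tested, mt-Co2, had a log2 fold change of 0.21 ± 0.64 on the few counts given above, and -0.20 without WT replicate 4.

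**Figure D3:**
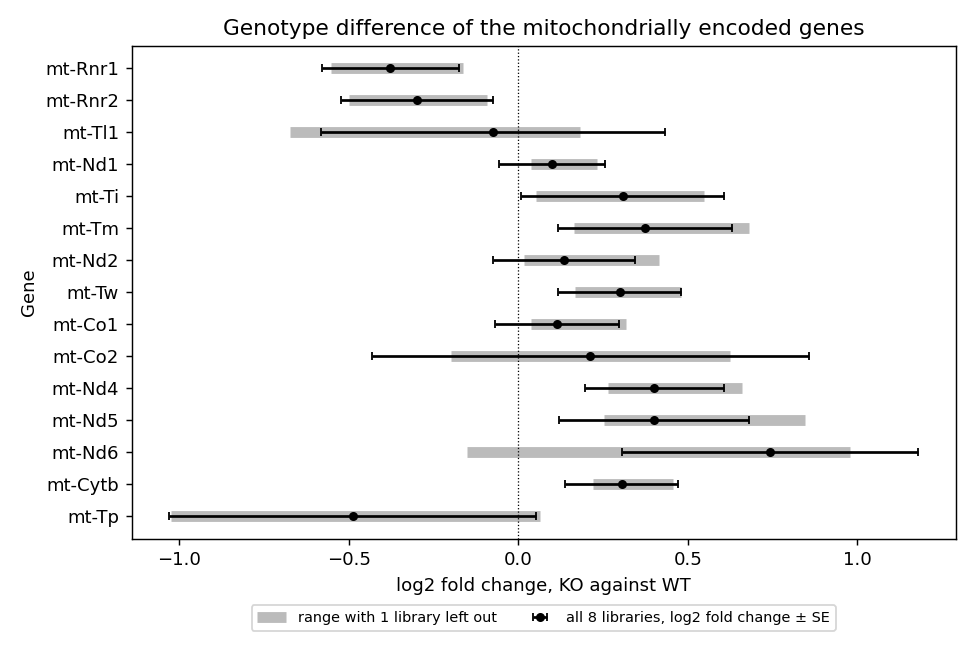
Log2 fold change of KO against WT for the 15 tested genes (points, with SE as bars) and its range when 1 library is left out (grey). The 2 rRNAs lie below 0 and 8 mRNAs above 0, with no gene past the threshold, and the range of mt-Nd6 reaches from -0.15 to 0.98.

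The overlap of the groups rested on WT replicate 1 for several genes. Without it, 7 of the 15 genes (mt-Nd1, mt-Nd2, mt-Co1, mt-Nd4, mt-Nd5, mt-Cytb and the tRNA gene mt-Tw) had all KO hearts above all WT hearts, against 5.8% of all genes tested under the same omission. With all 8 libraries the count was 0, against 2.14% of all genes higher in KO. Without WT replicate 1, 6 of 17 tested mitochondrial genes had an unadjusted p under 0.05, against 10.7% of all genes in that fit, and none passed after adjustment. WT replicate 1 was the highest WT heart in each of these 7 genes, so the lack of overlap without it was largely set by that choice. Overlap was not counted with any other heart left out. The labels give no reason to leave WT replicate 1 out, and the values with all 8 libraries are the result.

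The tRNA genes were counted unevenly. Of the 22, 8 held 0 counts in every library, which says nothing of their level, as mature tRNAs carry no poly(A) tail and are shorter than usual library fragments. The 3 with the most counts were mt-Ti (isoleucine), mt-Tm (methionine) and mt-Tw (tryptophan), which lie directly beside mt-Nd1 and mt-Nd2. Their sequences are shown because they are the tRNA genes that the comparison rests on.
mt-Ti: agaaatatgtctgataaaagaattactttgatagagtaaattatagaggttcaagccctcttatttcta
mt-Tm: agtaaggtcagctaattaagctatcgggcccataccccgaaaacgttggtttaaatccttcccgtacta
mt-Tw: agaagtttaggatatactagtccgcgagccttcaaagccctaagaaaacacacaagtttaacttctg
By annotation mt-Ti (M, plus strand, 3706 to 3774) shares 2 bases with mt-Nd1, and mt-Tw (M, plus strand, 4950 to 5016) shares 2 bases with mt-Nd2, so reads that span both genes may count for either.

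WT hearts fell into different positions for mt-Ti and mt-Tm than for the mRNAs. The levels of mt-Ti were 426, 229, 801 and 731 CPM in WT and 692, 544, 670 and 799.8 in KO. WT replicates 1 and 2 were the lowest of all 8 hearts and WT replicate 3 the highest, so that the groups overlapped (log2 fold change 0.31 ± 0.30, SE; edgeR adjusted p = 0.874). The levels of mt-Tm were 41.4, 28.5, 85.4 and 60.6 CPM in WT and 73.9, 60.03, 63.9 and 82.3 in KO, with WT replicates 1 and 2 lowest again (log2 fold change 0.37 ± 0.26; edgeR adjusted p = 0.811). The levels of mt-Tw were 22.1, 11.5, 16.3 and 15.2 CPM in WT and 18.8, 18.9, 24.6 and 18.03 in KO, which followed the mRNAs instead (log2 fold change 0.30 ± 0.18; edgeR adjusted p = 0.797). The other 2 tested, mt-Tl1 and mt-Tp, had at most 26 and 88 counts and log2 fold changes of -0.07 ± 0.51 and -0.49 ± 0.54. The 17 tRNA genes not tested reached at most 56 counts.

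Set against its neighbour, mt-Ti varied widely among WT hearts. For 1000 counts of mt-Nd1 there were 8.99, 6.42, 24.5 and 21.5 counts of mt-Ti in WT and 17.4, 14.6, 14.9 and 20.9 in KO. WT replicates 1 and 2 lay below and WT replicates 3 and 4 above all KO hearts. Similarly, 1000 counts of mt-Nd2 came with 1.43, 1.71, 6.03 and 3.79 counts of mt-Tm in WT and 3.73, 3.14, 2.60 and 4.18 in KO.

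The ratio of the downstream mRNA mt-Nd5 to the upstream mRNA mt-Nd1 overlapped between genotypes and was not tested. Per 100 counts of mt-Nd1 there were 67.7, 34.5, 37.5 and 43.5 counts of mt-Nd5 in WT and 53.9, 67.1, 62.5 and 51.3 in KO. The WT mean was 45.8 ± 15.1 and the KO mean 58.7 ± 7.34 (SD, n = 4), and WT replicate 1 lay above every KO heart while the other 3 WT hearts lay below them. The ratio of mt-Rnr2 to mt-Rnr1 counts was steadier, at 133 to 159 per 100 in WT and 151 to 167 in KO.

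**Figure D4:**
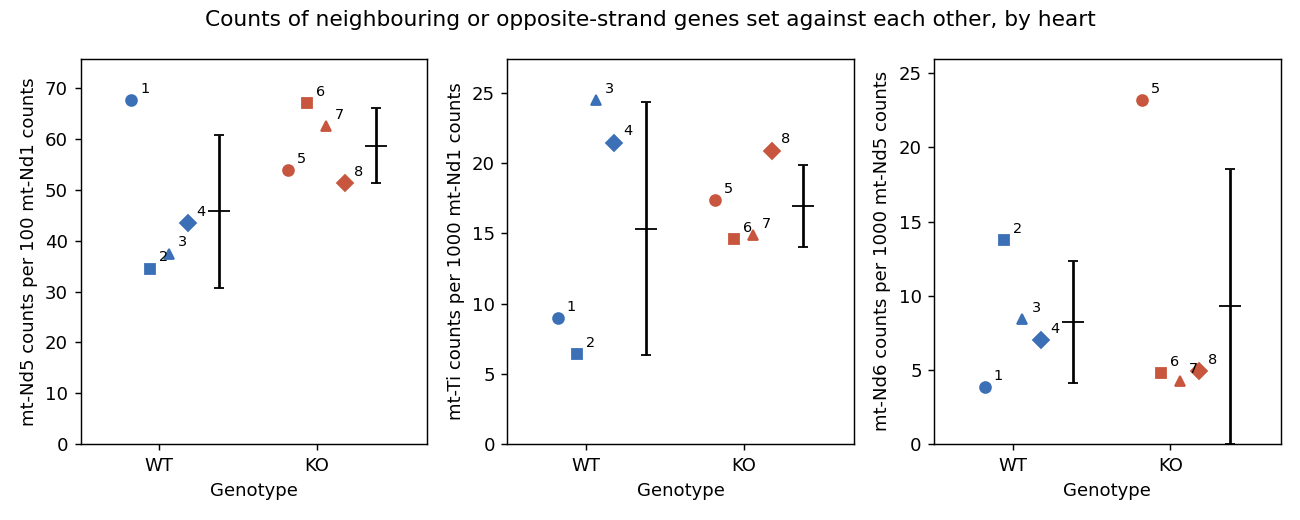
Counts of mt-Nd5 per 100 counts of mt-Nd1, of mt-Ti per 1000 counts of mt-Nd1 and of mt-Nd6 per 1000 counts of mt-Nd5 in each heart (numbered by replicate), with mean and SD as bars (n = 4). WT replicate 1 lies at 67.7 on the left, WT replicates 1 and 2 lie lowest in the middle, and KO replicate 5 lies at 23.2 on the right.

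Mitochondrial transcripts as a whole took between 19.4% and 29.2% of counts in WT and between 23.0% and 26.7% in KO. WT replicate 1 took 29.2%, and the 3 other WT hearts took 19.4 to 19.9%, below every KO heart. Within the mitochondrial counts, complex I genes took 44.4 ± 2.84% in WT and 46.7 ± 1.498% in KO, mt-Cytb 19.3 ± 1.53% and 20.8 ± 1.42%, and complex IV genes 28.2 ± 0.619% and 26.9 ± 0.815% (SD over 4 hearts). The rRNAs took 4.96, 11.6, 9.87 and 4.94% in WT and 5.58, 5.21, 4.34 and 5.94% in KO. WT replicates 2 and 3 thus held a larger rRNA share than any other heart, and the 2 other WT hearts lay among the KO hearts. These shares cover only the genes that the table could count.

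**Figure D5:**
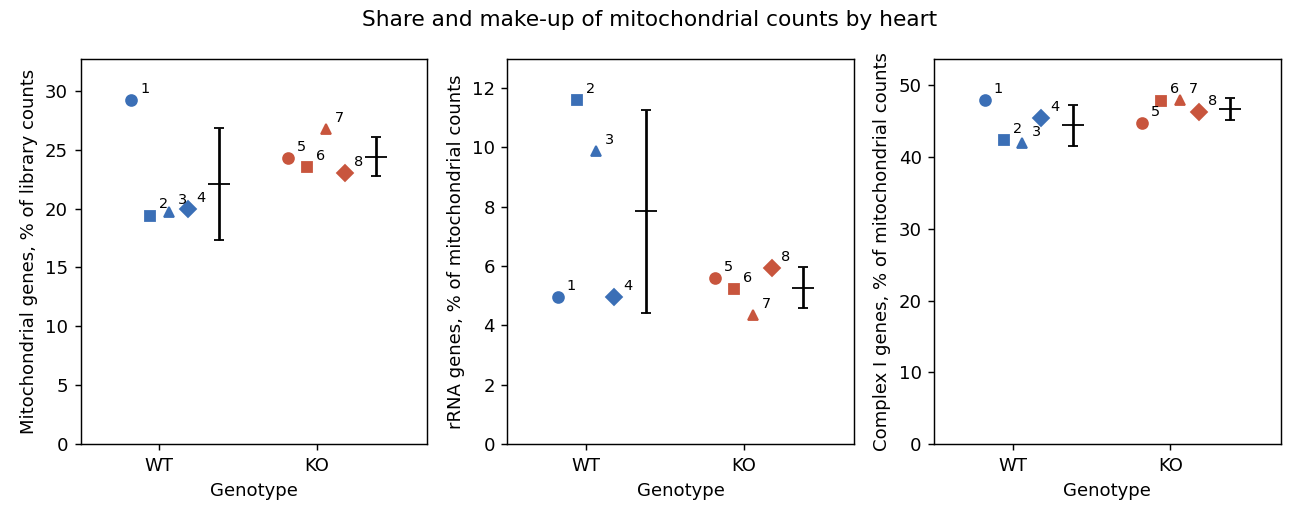
Mitochondrial genes as a percent of library counts, and rRNA and complex I genes as a percent of mitochondrial counts, in each heart (numbered by replicate), with mean and SD as bars (n = 4). WT replicate 1 stands at 29.2% on the left and WT replicates 2 and 3 at 11.6% and 9.87% in the middle, while the KO hearts lie close together in all 3 panels.

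The nuclear genes followed serve mitochondrial DNA maintenance, transcription, RNA processing and modification, translation, or are subunits of complexes I, III, IV and ATP synthase. None of these passed in either direction. Of 197 genes in 10 lists, 196 were tested, 0 passed, against 0.0225% of all genes tested, and 6 had an unadjusted p under 0.05, against 6.4% of all genes. The median log2 fold change over all of them was -0.029, with 76 positive and 120 negative, where 49.4% of all genes were positive. The KO hearts lay above all WT hearts for 2 of them and below for 5, where 4.12% of all genes tested had groups that did not overlap. Among the 11 genes of mitochondrial transcription, 2 were positive and 9 negative, with a median of -0.21 and none passing. That median was -0.14 without WT replicate 2 and -0.093 with a trend in GC content and length removed. Tfam, which packages mitochondrial DNA and starts its transcription, averaged 31.5 ± 3.88 CPM in the WT hearts and 26.5 ± 0.645 in the KO hearts (SD, n = 4). On the log2 scale it stood at -0.25 ± 0.12 (SE), with an edgeR adjusted p of 0.777. The mitochondrial RNA polymerase Polrmt stood at 0.15 ± 0.14 on the log2 scale, the initiation factor Tfb2m at -0.01 ± 0.17, the elongation factor Tefm at -0.02 ± 0.17 and Mrpl12, a ribosomal protein that also binds the polymerase, at -0.21 ± 0.12. Tfam and Mrpl12 thus lay opposite to the heavy-strand mRNAs, with overlapping groups.

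The 24 genes of mitochondrial RNA processing and stability had a median log2 fold change of -0.04. Those that release the tRNAs had values of 0.11 ± 0.11 for Elac2, -0.22 ± 0.17 for Trmt10c and -0.02 ± 0.11 for Hsd17b10. Lrpprc and Slirp, which form a complex that stabilises mitochondrial mRNAs, stood at -0.10 ± 0.15 and -0.03 ± 0.13, the poly(A) polymerase Mtpap at -0.04 ± 0.12 and the ribonuclease Pnpt1 at -0.14 ± 0.13. The smallest p in this list belonged to Fastkd1 (0.22 ± 0.11, KO hearts above all WT hearts) and Trnt1, which adds CCA to tRNAs (-0.24 ± 0.13). Of the 16 genes of mitochondrial DNA maintenance 5 were positive and 11 negative (median -0.05), led by Primpol at -0.46 ± 0.24 and Top3a at 0.34 ± 0.23.

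Among genes of mitochondrial translation, the smallest p belonged to Lars2. Lars2, the mitochondrial leucyl-tRNA synthetase, had 33.9, 83.4, 39.1 and 33.9 CPM in WT and 29.7, 28.9, 21.6 and 23.5 in KO. WT replicate 2, the heart with the most mt-Rnr1 and mt-Rnr2, stood far above the rest, and all KO hearts lay below all WT hearts (log2 fold change -0.87 ± 0.26, unadjusted p = 0.0053, adjusted p = 0.711 in edgeR). Without that heart the value was -0.46. The other 22 aminoacyl-tRNA synthetases included Wars2 at -0.45 ± 0.17, also with all KO hearts below all WT hearts, and the list of 23 had a median of -0.02. The median was -0.02 for the 27 genes of rRNA and tRNA modification, where Gtpbp3 (0.29 ± 0.15) and Yrdc (-0.27 ± 0.15) had the smallest p. It was -0.06 for the 16 translation factors and membrane insertion genes, where Guf1 (-0.22 ± 0.10) and Mtrf1 (-0.32 ± 0.15) did.

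Nuclear partners of the mitochondrially encoded subunits had medians near 0. The median log2 fold change was -0.04 over 36 complex I genes, -0.0029 over 9 complex III genes, -0.03 over 17 complex IV genes and 0.02 over 17 ATP synthase genes, none of which passed. Members with the smallest p lay in both directions within a complex, such as Ndufa12 at 0.42 ± 0.14 and Ndufab1 at -0.27 ± 0.14, or Cyc1 at 0.24 ± 0.12 and Uqcrb at -0.22 ± 0.13. In complex IV, Cox6a2, the isoform of heart and skeletal muscle, had 2433 ± 211 CPM in WT and 2981 ± 227 in KO (0.29 ± 0.12), with all KO hearts above all WT hearts, and Cox6b2 stood at 0.61 ± 0.35. Among ATP synthase genes Atp5h stood at -0.30 ± 0.13, with all KO hearts below all WT hearts, and Atp5g2 at 0.30 ± 0.22. The adjusted p of these genes lay between 0.711 and 0.818. Most of the complex I genes were lowest of all hearts in WT replicate 1, the WT heart highest in the leading mitochondrial mRNAs. Among them were Ndufa12 at 150 CPM and Ndufab1 at 227 CPM in that heart. Cyc1, Uqcrb, Cox6a2, Cox6b2, Atp5h and Atp5g2 were not lowest there, and a link with the mitochondrial values was not tested.

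The tissue carried its defining markers. The summed level of 10 cardiomyocyte markers was 69884 to 84522 CPM in WT and 73422 to 86271 in KO, with all 10 well above 0. WT replicate 1, the heart with the largest mitochondrial share, had the lowest sum of cardiomyocyte markers and, at 831 CPM, of blood markers. It also had the highest atrial sum of all hearts, at 12.8 CPM, and the highest endothelial sum of the WT hearts, at 1408 CPM. For 5 atrial markers the sums were 5.91 to 12.8 CPM in WT and 6.67 to 12.6 in KO, with Bmp10 at 0 counts throughout. The sums were 1074 to 1365 and 877 to 1130 CPM for 7 fibroblast markers, 1127 to 1408 and 1073 to 1426 for 6 endothelial markers, 861 to 1094 and 653 to 1277 for 6 smooth muscle and pericyte markers, 155 to 243 and 166 to 255 for 6 macrophage markers, 4.496 to 6.73 and 3.24 to 5.04 for 6 lymphocyte markers, and 831 to 1811 and 1165 to 2171 for 7 blood markers. White and brown adipocyte markers summed to 16.6 to 34.9 CPM in WT and 23.3 to 36.3 in KO, nearly all of it Cidea, which cardiac muscle may also express, while Ucp1 lay at or near 0. Of the atrial, lymphocyte and adipocyte markers only 2, 3 and 1 had enough counts to be tested, with all markers of the other lists. None of those tested passed, and their part in the mitochondrial values was not tested.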

How the data were processed

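Total counts per gene were taken from 8 hearts, 4 WT and 4 KO, with groups and replicate numbers from the sample titles. The authors deposited raw counts per Ensembl gene, whole numbers without normalization. Per the labels' protocols the kit selected poly(A) RNA and kept strand. The submitters' processing notes name STAR 2.7.1a and the GRCm38 genome. No source used here gives the counting tool, its strand setting, its treatment of reads that match several places or its annotation. They can change how much of a mitochondrial gene with a nuclear copy is counted.

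GENCODE M21 (GRCm38) gave symbols for 36429 of 38293 identifiers; the 1864 others, with up to 0.187% of the counts of a heart, were tested too. edgeR 4.0.16 under R 4.3.3 fitted genotype alone by quasi-likelihood, after filterByExpr at a minimum count of 10 and TMM scaling. Tests were two-sided, and Benjamini-Hochberg adjustment over 13336 genes used a threshold of 0.05. SE was derived from the fold change and F, and the approximate interval is 1.96 SE each way. P-values measure the spread between these hearts, whose litters and batches are not given. Every pair of libraries differed beyond sampling noise, with a chi-square of at least 11.5 times its degrees of freedom. For WT replicate 1 this multiple was 44.1 to 60.0 against the other WT hearts and 13.5 to 26.4 against the KO hearts. The measure covers all genes with enough counts, the mitochondrial ones among them, and why WT replicate 1 differs was not tested. The script was tested on simulated data.

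The members and lists were chosen with earlier results of these data known. Named genes were all tested members, other rRNA and protein-coding members by counts, the 3 most counted tRNAs, nuclear copies averaging 10 counts, 11 set genes of mitochondrial transcription and RNA processing, and the 2 of each list with the smallest p; Cidea, Ucp1, Bmp10, mt-Tq and mt-Te were named after their values were seen, as were the low nuclear copies. Windows were to be searched in the nuclear chromosomes; annotated nuclear transcripts of GENCODE M21 were used instead. Alternatives were DESeq2 1.42.0 and its size factors, library totals, nuclear-only scaling, limma-voom (limma 3.58.1), robust edgeR, other filters, 1 surrogate variable (sva 3.50.0), a GC content and length trend (splines with 4 degrees of freedom), an adjusted p of 0.10 and each library left out. Unmatched windows as length, omission of tRNAs and joint omission of WT replicate 2 and KO replicate 5 were added after seeing the data. The count of groups without overlap when WT replicate 1 was left out was also not planned.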

Additional observations from a re-analysis of the deposited data

Results flagged for a closer look

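Within each group of 4 hearts, the highest and lowest value of each mitochondrial gene with at least 10 counts in some library, and of 2 shares, were compared with the rest. A heart was singled out where its gap to the nearest other heart was, as a share of the group's range, above Dixon's critical value for 4 samples. This held for 12 of 44 groups tested. Chance alone gives about 1 in 20 for normally distributed values, which CPM and low counts need not be. The genes are also not independent of each other, so whether 12 exceeds chance was not tested.

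WT replicate 1 stood high in 4 of them, with 28922 CPM of mt-Nd2 (other WT hearts 14168 to 16650), 86349 CPM of mt-Co1 (52038 to 54731), 32075 CPM of mt-Nd5 (12242 to 14804) and 29.2% of counts from mitochondrial genes (19.4 to 19.9%). KO replicate 5 stood high with 56 counts of mt-Tq (4 to 12 in the other KO hearts), 105 counts of mt-Atp6 (1 to 5), 499 CPM of mt-Nd6 (97.0 to 121) and 5.53 CPM of mt-Tp (1.75 to 2.34). KO replicate 7 stood high with 24558 CPM of mt-Nd2 (19104 to 19812) and 24.6 CPM of mt-Tw (18.03 to 18.9), and low with 0.314 CPM of mt-Co2 (1.89 to 2.19). KO replicate 8 stood high with 366 counts of mt-Nd3 (0 to 3).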

How the results depend on the processing

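No mitochondrial gene passed under any of the alternatives run, and their smallest adjusted p was 0.145, for mt-Nd5 without WT replicate 1. Of 284 recomputed log2 fold changes of the 15 genes, 275 kept their direction and 9 turned: mt-Tl1 to 0.18 without WT replicate 1, 0.03 without WT replicate 3, 0.15, 0.09 and 0.02 without KO replicates 5, 6 and 7, and 0.10 without both WT replicate 2 and KO replicate 5; mt-Co2 to -0.20 without WT replicate 4; mt-Nd6 to -0.15 without KO replicate 5; and mt-Tp to 0.065 without WT replicate 2. With 1 library left out, the lowest or highest values of these genes were -0.67 for mt-Tl1 (KO replicate 8), 0.62 for mt-Co2 (WT replicate 2), 0.98 for mt-Nd6 (KO replicate 8) and -1.02 for mt-Tp (KO replicate 5). The median of the mitochondrial genes tested in each fit ran from 0.078 (without WT replicate 2) to 0.39 (no filter, 29 genes tested). The difference in mitochondrial share ran from 1.42 percentage points without WT replicate 2 to 4.70 without WT replicate 1. The difference in rRNA share ran from -3.54 (without WT replicate 4) to -1.33 percentage points (without WT replicate 2). Over all genes, 3 passed, against 10 without a filter, 5 with 1 surrogate variable and 11 with DESeq2; with 1 library left out, 2 (KO replicate 6) to 6 (WT replicate 4) passed, and 5 without WT replicate 1; the cause was not tested. Nbdy ran from -0.99 to -0.95 with 1 library left out and had an adjusted p of 0.056 without KO replicate 6 (-0.96) and 0.092 without both WT replicate 2 and KO replicate 5 (-0.96). Library totals moved the median of all genes to -0.05. No paired analysis was possible because WT and KO share no replicate numbers. The 22 genes not tested had too few counts for the filter. Without a filter 29 of the 37 were tested in edgeR and none passed. In that fit 7 had an unadjusted p under 0.05, against 5.58% of all genes. The genes that it adds hold few counts, and some rest on 1 heart. For mt-Nd3, KO replicate 8 held 366 counts and every other heart at most 3.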
